A study of Mus musculus with 25 samples.

Results

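The metallothionein genes Mt1, Mt2 and Mt3 were followed through 4 comparisons of maternal diet in the mouse hypothalamus. They are 3 of the 24421 genes listed in each deposited table, and they were chosen by the deposited fold changes of Mt1 and Mt2, which were positive with a hypercaloric maternal diet in offspring weaned onto that diet. The values of the members in HCD-weaned offspring, on which the choice rests, are therefore given below as a description with no test. All animals were wild-type C57BL/6J mice whose hypothalamus was taken at 3 months of age. Their dams ate either a hypercaloric diet with 52% fat and high sucrose (HCD) or regular chow (RD), starting 1 month before mating and continuing until weaning, when the pups themselves went onto HCD or RD. In each group name below the dam's diet stands first and the offspring's diet second. Each of the 4 tables compared offspring of HCD dams with offspring of RD dams of the same sex and postnatal diet: HCD-HCD_Female with RD-HCD_Female, HCD-HCD_Male with RD-HCD_Male, HCD-RD_Female with RD-RD_Female, and HCD-RD_Male with RD-RD_Male. The 25 samples fell into 8 groups, with 4 in RD-RD_Male and 3 in each other group by the labels, although the files of the RD-weaned male comparison have 6 library columns rather than 7, so the number of samples behind it is uncertain.

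Metallothioneins are small cysteine-rich proteins that hold zinc and copper in metal-thiolate clusters. Transcription of Mt1 and Mt2 is induced by zinc, cadmium, glucocorticoids, inflammatory cytokines and oxidative stress, with the zinc-sensing factor MTF1 acting at metal response elements in their promoters. Mt3, first described as a growth inhibitory factor, is expressed mainly in the brain and responds weakly to metals. In brain, Mt1 and Mt2 are made largely by astrocytes and by ependymal and vascular cells, and Mt3 by astrocytes and by neurons that store zinc in synaptic vesicles.

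The members lie in 1 cluster on chromosome 8 of GRCm38.p6, in the order Mt3, Mt2, Mt1, all on the plus strand and all protein-coding in the RefSeq annotation. Mt3 covers 94152607 to 94154148, Mt2 94172618 to 94173567 and Mt1 94178883 to 94180327, with 18469 bases between Mt3 and Mt2 and 5315 bases between Mt2 and Mt1. The RefSeq start site used for Mt1 is 94179089, after the start of its earliest annotated transcript, so the stretch shown for Mt1 lies partly within that transcript's span. The 250 bases before the start site of each member are shown because the members differ in the sites they carry there. Sequences are from RefSeq, 5′ to 3′ on the plus strand, at chr8:94178839-94179088 for Mt1, chr8:94172368-94172617 for Mt2 and chr8:94152357-94152606 for Mt3. Capitals mark the core of the metal response element, TGCACNC or TGCGCNC, on either strand.
Mt1: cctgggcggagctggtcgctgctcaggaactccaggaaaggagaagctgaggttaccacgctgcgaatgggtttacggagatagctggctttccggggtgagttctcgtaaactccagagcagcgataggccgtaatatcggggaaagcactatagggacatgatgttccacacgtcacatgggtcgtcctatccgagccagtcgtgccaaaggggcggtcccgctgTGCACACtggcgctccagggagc
Mt2: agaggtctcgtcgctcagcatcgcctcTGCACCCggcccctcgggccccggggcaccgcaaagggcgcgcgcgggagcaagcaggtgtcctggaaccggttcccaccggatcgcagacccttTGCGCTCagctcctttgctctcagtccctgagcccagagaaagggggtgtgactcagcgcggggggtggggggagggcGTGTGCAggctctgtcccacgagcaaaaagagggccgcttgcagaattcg
Mt3: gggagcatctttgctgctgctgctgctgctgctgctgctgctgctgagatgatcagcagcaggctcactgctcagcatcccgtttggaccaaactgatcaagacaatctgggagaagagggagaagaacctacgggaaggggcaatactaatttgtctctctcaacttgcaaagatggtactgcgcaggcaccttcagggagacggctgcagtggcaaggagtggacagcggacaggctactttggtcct

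In these stretches the core stood once before Mt1, 3 times before Mt2 and nowhere before Mt3. When the first 50 bases after the start were included, Mt2 had 4 matches, Mt1 had 3 and Mt3 had 1. Of 32851 RefSeq promoters of the same length, 25.7% held at least 1 match, 1.97% at least 3 and 0.517% at least 4. The palindromic glucocorticoid response element matched once, in Mt1, from base -94 to base -82 relative to the start, and 0.475% of promoters held it. The antioxidant response element core TGACNNNGC matched once, in Mt2, from base -79 to base -71, and 12.4% of promoters held it. The STAT site TTCNNNGAA (8.3% of promoters) and the TATA box TATAAA (13.6%) matched in none of the 3 windows. Both strands were searched for every motif, and no 2 matches overlapped. The Mt3 stretch instead held a run of 11 CTG units, from base -237 to base -205. GENCODE M21 lists further transcripts that start 122 and 152 bases after the RefSeq start for Mt1. Others start 46 and 242 bases after the RefSeq start for Mt2 and 139 bases after it for Mt3. Except for the Mt2 start at 46 bases, bases just before these later starts lie outside the window that was searched. The counts of matches therefore hold for the RefSeq starts alone, and other starts could change how the members compare.

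**Figure D1:**
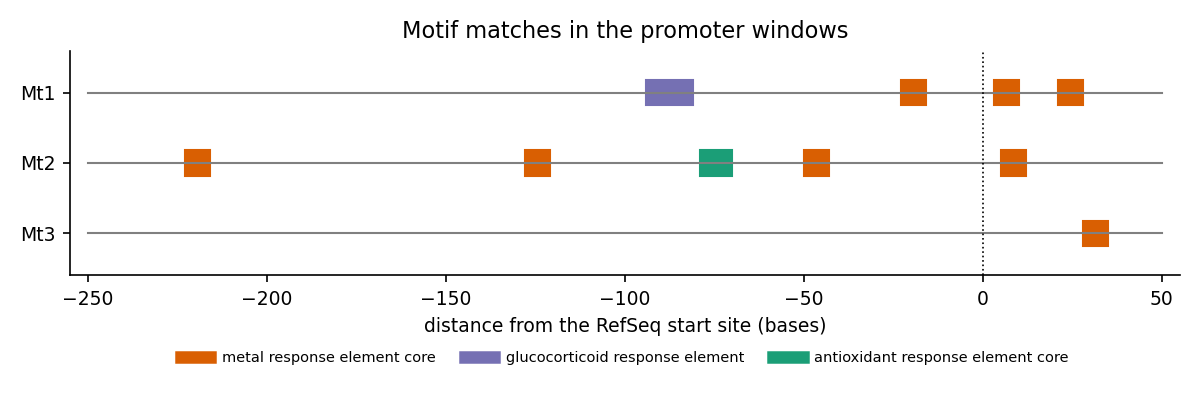
Motif matches in the 3 promoter windows, plotted by distance in bases from the RefSeq start site (dotted line). Boxes mark matches on either strand. Metal response element cores number 3 in Mt1, 4 in Mt2 and 1 in Mt3, while the glucocorticoid element is in Mt1 and the antioxidant element is in Mt2.

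All 3 members were among the more abundant transcripts of the tissue. The authors' deposited tables give 1 mean normalized count per gene over both maternal diets, with no value per group, so levels cannot be split by maternal diet from them. The columns of single libraries match no label and were not analysed, so no value per sample is given. Mt1 had a mean of 18721 normalized counts in HCD-weaned females, 15971 in HCD-weaned males, 11992 in RD-weaned females and 6356 in RD-weaned males in the authors' deposited tables. Mt2, the closely related isoform of Mt1, had 7140 in HCD-weaned females, 6608 in HCD-weaned males, 5745 in RD-weaned females and 2909 in RD-weaned males in the authors' deposited tables. Mt3 had the highest mean of the 3 in each of the authors' deposited tables, at 20586 in HCD-weaned females, 21179 in HCD-weaned males, 17175 in RD-weaned females and 8607 in RD-weaned males. Mt4, the remaining metallothionein gene, which is known from stratified epithelia, was nearly absent, with means between 0.239 and 2.18 in the authors' deposited tables.

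Levels per transcript length kept the order Mt3, Mt1, Mt2 in every table. Each deposited mean was scaled to its share of the table's summed means, as counts per 1000000 (CPM), and divided by the length of the gene's principal transcript in kilobases. On this scale, from the authors' deposited means, Mt3 stood at 1689 in HCD-weaned females, 1466 in HCD-weaned males, 1360 in RD-weaned females and 1043 in RD-weaned males. Mt1 stood at 1500 in HCD-weaned females, 1079 in HCD-weaned males, 927 in RD-weaned females and 752 in RD-weaned males. Mt2 stood at 614 in HCD-weaned females, 480 in HCD-weaned males, 477 in RD-weaned females and 370 in RD-weaned males. All 3 were therefore highest in HCD-weaned females and lowest in RD-weaned males, and Mt2 was close to equal in HCD-weaned males and RD-weaned females. Each table was normalized on its own and gives no spread of these means, so whether neighbouring levels in that order differ was not tested. Ranked per length among all listed genes, Mt3 stood between 18 and 29, Mt1 between 25 and 50, and Mt2 between 103 and 164. Mt1 exceeded Mt2 per length by 2.44 and 2.25 times in HCD-weaned females and males, and by 1.94 and 2.03 times in RD-weaned females and males. The ratio of Mt2 to Mt3 moved less, between 0.327 and 0.364. No stretch of 50 bases in the transcripts of a member occurred in a transcript of another gene in GENCODE M21, so reads of at least that length would separate the members.

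**Figure D2:**
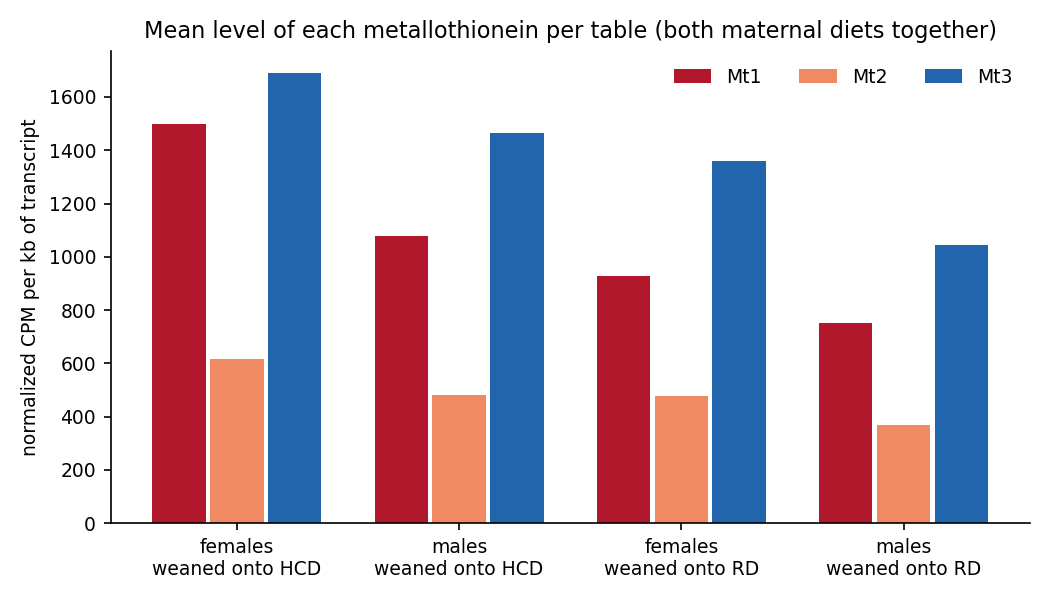
Mean level of each metallothionein in each deposited table, in normalized CPM per kilobase of transcript, with both maternal diets together and no error available. Mt3 is the tallest bar in every table (1043 to 1689), Mt1 lies below it (752 to 1500) and Mt2 is lowest (370 to 614).

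With HCD dams, all 3 members were positive in HCD-weaned offspring of both sexes. The authors' deposited table of HCD-weaned females gives log2 fold changes of HCD dams over RD dams of 1.74 ± 0.21 (SE) for Mt1, 1.29 ± 0.18 for Mt2 and 0.91 ± 0.28 for Mt3, or 3.33-fold, 2.44-fold and 1.88-fold. Of 15043 genes tested there, Mt1 had the largest Wald statistic (the ratio of fold change to standard error), Mt2 was at rank 3 and Mt3 at rank 190. By fold change Mt1 was at rank 2, Mt2 at rank 12 and Mt3 at rank 150.

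In HCD-weaned males the values were 1.00 ± 0.27 for Mt1, 0.59 ± 0.28 for Mt2 and 0.81 ± 0.28 for Mt3 in the authors' deposited table, or 1.99-fold, 1.51-fold and 1.76-fold. The ranks by Wald statistic were 13, 360 and 58 of 15384 genes. Mt1 was thus the highest member in both sexes, but Mt3 stood above Mt2 in males and below it in females. Across all genes tested, the authors' deposited tables called 1.52% in HCD-weaned females (229 of 15043, with 148 positive and 81 negative) and 0.163% in HCD-weaned males (25 of 15384, with 7 positive and 18 negative) at an adjusted p under 0.05. The female split depended on scaling, with 100 positive and 96 negative once fold changes were centred on their median of 0.04, and 38 and 16 once a trend with transcript length and GC content was removed. The male split became 0 positive and 3 negative once the Wald statistic was divided by its robust spread. In bulk tissue, fewer or more cells of a type and less or more RNA per cell cannot be told apart.

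In RD-weaned offspring none of the members passed the test. For these tables the labels give only the order of the groups, and with the opposite reading every sign below would turn. In RD-weaned females Mt1 stood at 0.04 ± 0.25 (SE), Mt2 at 0.02 ± 0.24 and Mt3 at 0.15 ± 0.27 in the authors' deposited table, with unadjusted p-values of 0.864, 0.921 and 0.571 and an adjusted p of 1.00 each from DESeq. The 95% intervals of the fold change were 0.730 to 1.46 for Mt1, 0.729 to 1.42 for Mt2 and 0.771 to 1.60 for Mt3. In RD-weaned males Mt1 stood at 0.14 ± 0.38, Mt2 at 0.14 ± 0.41 and Mt3 at -0.14 ± 0.43 in the authors' deposited table, with unadjusted p-values of 0.722, 0.738 and 0.748 and an adjusted p of 1.00 each from DESeq. There the intervals were wider, 0.654 to 1.85 for Mt1, 0.630 to 1.92 for Mt2 and 0.504 to 1.64 for Mt3. Neither sex had a member called at an adjusted p under 0.05 (0 of 3 each) or with an unadjusted p under 0.05 (0 of 3 each) in the authors' deposited tables, where 0.346% of genes in females (52 of 15028) and 0.0851% in males (11 of 12920) were called. An unadjusted p under 0.05 was held by 6.16% of the genes tested in RD-weaned females (926) and 4.30% in RD-weaned males (555).

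**Figure D3:**
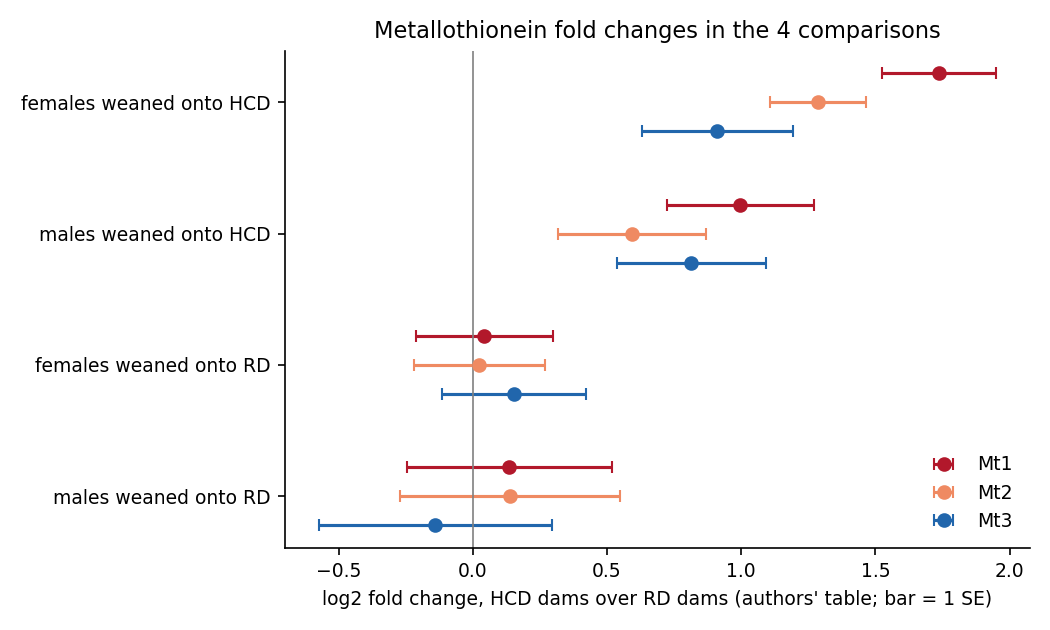
Log2 fold change of HCD dams over RD dams for each metallothionein in the 4 comparisons, with bars of 1 standard error, from the authors' deposited tables. The members stand between 0.59 and 1.74 in HCD-weaned offspring and between -0.14 and 0.15 in RD-weaned offspring, where every bar crosses 0.

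The gap between postnatal diets was widest for Mt1 in females. The log2 fold change in HCD-weaned females minus that in RD-weaned females, from the authors' deposited tables, was 1.69 ± 0.33 (SE) for Mt1, 1.26 ± 0.30 for Mt2 and 0.76 ± 0.39 for Mt3. Among 14603 genes, whose median difference was 0.02, these were at ranks 7, 23 and 377. In males the same difference was 0.86 ± 0.47 for Mt1, 0.46 ± 0.49 for Mt2 and 0.95 ± 0.51 for Mt3, at ranks 405, 2228 and 211 of 12910. If the sign of the RD-weaned table were turned, the female differences would be 1.78 for Mt1, 1.31 for Mt2 and 1.06 for Mt3, and the male ones 1.13, 0.73 and 0.68, with Mt1 in place of Mt3 as the largest. As the HCD-weaned values chose the genes, none of these differences was tested. By the labels, the tables of the 2 postnatal diets share no samples. The deposited fold changes appear pulled toward 0, possibly to unlike degrees between tables, and differences between tables were not corrected for that.

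Females and males were compared in the same way. In HCD-weaned offspring, the female minus male difference in log2 fold change was 0.74 ± 0.35 (SE) for Mt1, 0.69 ± 0.33 for Mt2 and 0.10 ± 0.40 for Mt3. In RD-weaned offspring, which the choice did not use, the female minus male difference was -0.09 ± 0.46 for Mt1, -0.11 ± 0.48 for Mt2 and 0.29 ± 0.51 for Mt3. A Wald test of these differences, computed from the DESeq estimates over 12636 genes, gave p-values of 0.840 for Mt1, 0.813 for Mt2 and 0.567 for Mt3, and a Benjamini-Hochberg adjusted p of 0.999 for each. The 95% intervals ran from -0.99 to 0.81 for Mt1, from -1.05 to 0.82 for Mt2 and from -0.71 to 1.29 for Mt3. The test called 0 of 3 members and 1 gene of 12636, or 0.00791%, while 385 genes had an unadjusted p under 0.05.

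The members also differed among themselves within a table. Mt1 exceeded Mt2 by 0.45 in log2 fold change in HCD-weaned females and by 0.40 in HCD-weaned males, while the gap was 0.02 in RD-weaned females and 0.00 in RD-weaned males. Mt1 exceeded Mt3 by 0.83 in HCD-weaned females but by 0.18 in HCD-weaned males. Mt2 minus Mt3 changed sign between the sexes, at 0.38 in HCD-weaned females and -0.22 in HCD-weaned males. The members of a table share its libraries, and the tables do not give how their errors covary, so no error of these gaps can be stated.

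Short transcripts as a class were positive in the HCD-weaned tables, and the members are short, at 549 bases for Mt1, 511 for Mt2 and 536 for Mt3. The genes tested were divided by transcript length into 10 bins of equal size. In the authors' deposited tables, the bin of shortest transcripts (up to 1226 bases in HCD-weaned females) had a median log2 fold change of 0.26 in HCD-weaned females and 0.25 in HCD-weaned males. The bin of longest transcripts had a median of -0.31 in HCD-weaned females and -0.37 in HCD-weaned males. In RD-weaned offspring the shortest transcripts had a median of 0.05 in females and -0.17 in males. Across genes, Spearman's rho between Wald statistic and transcript length was -0.451 in HCD-weaned females, -0.556 in HCD-weaned males, -0.217 in RD-weaned females and 0.0949 in RD-weaned males, where genes are not independent replicates. Within the 1452 genes of the shortest bin in HCD-weaned females, Mt1 was at rank 2 by fold change, Mt2 at rank 8 and Mt3 at rank 67. Among 1485 such genes in HCD-weaned males the ranks were 9, 123 and 22. With the trend on length and GC content removed from the Wald statistic, Mt1 stood at 6.85 (rank 2 of 14507) and Mt2 at 6.01 (rank 4) in HCD-weaned females, while Mt3 stood at 1.54 (rank 1226). In HCD-weaned males the remaining statistics were 2.32 for Mt1 (rank 114 of 14831), 0.93 for Mt2 (rank 2129) and 1.45 for Mt3 (rank 788).

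**Figure D4:**
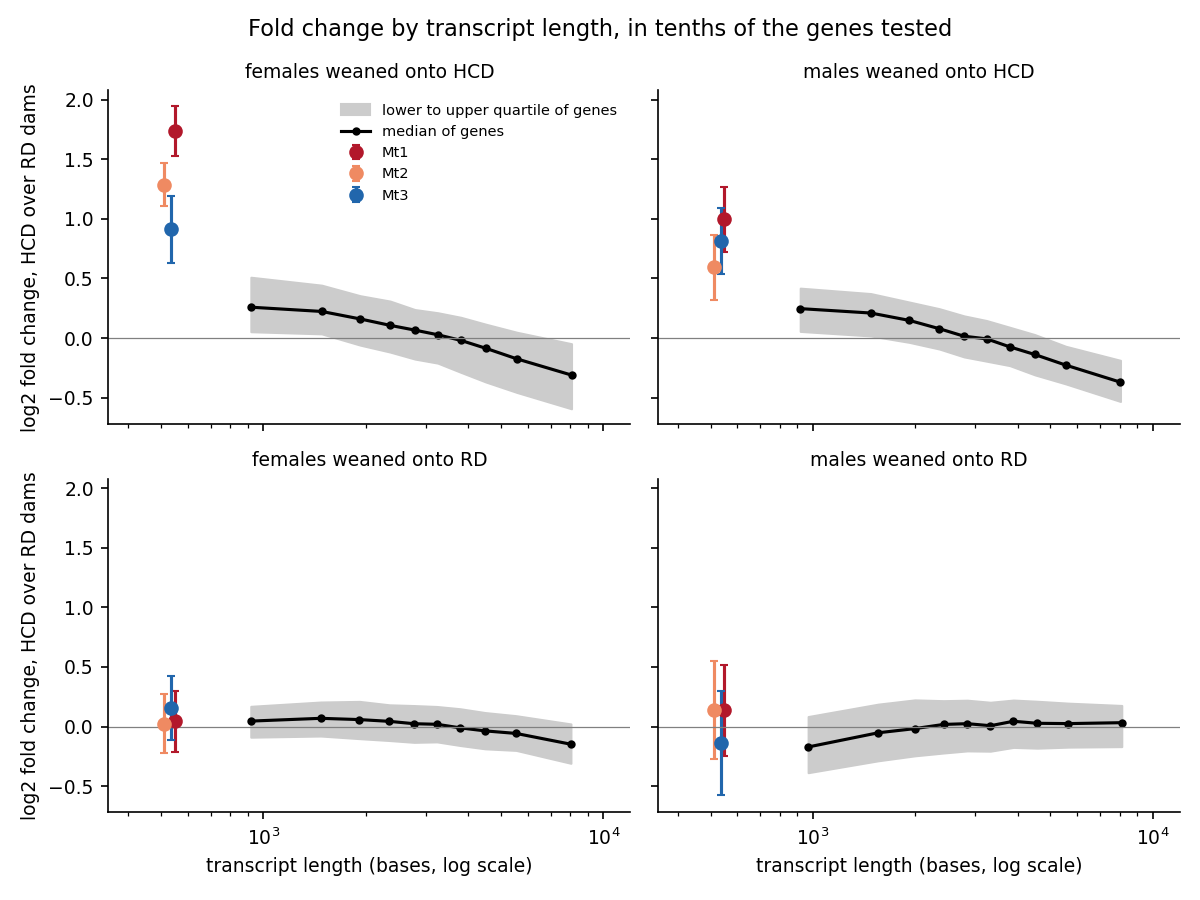
Log2 fold change of HCD dams over RD dams against transcript length in bases (log axis), one panel per comparison, from the authors' deposited tables. The black line joins the medians of 10 bins of the genes tested, grey spans their lower to upper quartile, and coloured points are the members with bars of 1 standard error. In HCD-weaned females the medians run from 0.26 in the shortest bin to -0.31 in the longest, and Mt1 at 1.74 lies far above.

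The genes that handle metals alongside the metallothioneins were mostly not called. Counts of list genes at an unadjusted p under 0.05 are to be read against 13.3% of all genes tested in HCD-weaned females, 8.14% in HCD-weaned males, 6.16% in RD-weaned females and 4.30% in RD-weaned males. Calls are to be read against 1.52%, 0.163%, 0.346% and 0.0851% of all genes tested, in the same order. Mtf1, the gene of the zinc sensor, stood at 0.01 ± 0.41 (SE) in HCD-weaned females, -0.30 ± 0.27 in HCD-weaned males, -0.09 ± 0.21 in RD-weaned females and 0.12 ± 0.42 in RD-weaned males in the authors' deposited tables, and was called in none. Of 22 zinc transporter genes tested in HCD-weaned females, 14 were positive and 8 negative, with a median of 0.09 against 0.04 over all genes tested. An unadjusted p under 0.05 was held by 4 of the 22, and 1 was called. The called gene, Slc39a7, which encodes a transporter that releases zinc from the endoplasmic reticulum, rose by 0.83 ± 0.22 on the log2 scale in the authors' deposited table (adjusted p = 0.0227 from DESeq). Its call was lost with the length and GC trend removed (adjusted p = 0.129 from DESeq statistics in the authors' deposited table) and with the Wald statistic divided by its robust spread over all genes (adjusted p = 0.104). Slc30a1, the zinc exporter gene that MTF1 is known to induce together with Mt1, stood at -0.06 ± 0.32 in HCD-weaned females and -0.04 ± 0.26 in HCD-weaned males in the authors' deposited table. It was picked for that role after its values had been seen. In the remaining comparisons 0 zinc transporters were called, with medians of 0.11 in HCD-weaned males (2 of 21 at an unadjusted p under 0.05), 0.10 in RD-weaned females (2 of 21) and 0.09 in RD-weaned males (1 of 19). Slc30a3, which loads zinc into synaptic vesicles, had the largest statistic of the list in HCD-weaned males (0.67 ± 0.27) and RD-weaned females (0.75 ± 0.29) in the authors' deposited tables without being called. In HCD-weaned females Slc30a3 had the highest fold change of the list (1.01 ± 0.37) and Slc39a12 the lowest (-0.64 ± 0.30), both without a call. Slc39a11, a zinc importer gene, had the largest statistic in RD-weaned males (-0.75 ± 0.31) and was not called.

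Of 13 copper genes tested in HCD-weaned females, 8 were positive, 3 had an unadjusted p under 0.05 and 2 were called. Cox17, the copper chaperone for cytochrome c oxidase, rose by 1.23 ± 0.27 (adjusted p = 0.00257 from DESeq), and Sod1, the copper-zinc superoxide dismutase, rose by 0.92 ± 0.20 (adjusted p = 0.00202) in the authors' deposited table. After removal of that trend Sod1 was no longer called (adjusted p = 0.0629 from DESeq statistics in the authors' deposited table), while Cox17 was called in every alternative run. The copper median was 0.21 in HCD-weaned females, 0.18 in HCD-weaned males, -0.03 in RD-weaned females and -0.07 in RD-weaned males, with 0 called outside HCD-weaned females. In the same order, medians over all genes tested were 0.04, -0.01, 0.01 and 4.75e-05. Those of the bin of shortest transcripts were 0.26, 0.25, 0.05 and -0.17. List medians here and below were not set against genes of like transcript length. At an unadjusted p under 0.05 stood 4 of 13 copper genes in HCD-weaned males and 0 in either sex of RD-weaned offspring. In HCD-weaned males Sco2, a copper metallochaperone, had the largest statistic at 1.05 ± 0.29 (adjusted p = 0.116 from DESeq in the authors' deposited table). Of the iron genes, 0 were called in any comparison, and the medians lay between 0.03 and 0.07, with 0 to 2 genes at an unadjusted p under 0.05. Fth1, the ferritin heavy chain, came closest in HCD-weaned females at 0.73 ± 0.23 (adjusted p = 0.0646 from DESeq) and stood at 0.89 ± 0.25 (adjusted p = 0.126) in HCD-weaned males in the authors' deposited tables. In RD-weaned males Tfrc, the transferrin receptor, had the largest statistic at 1.16 ± 0.36 (adjusted p = 0.276 from DESeq in the authors' deposited table).

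Further stimuli known to induce Mt1 and Mt2 were looked at through their other target genes. Of 14 genes of the glucocorticoid response tested in HCD-weaned females, 8 were positive, the median was 0.34, 4 had an unadjusted p under 0.05 and 2 were called. Over all genes tested there, the median was 0.04 and 1.52% were called. Like the other lists, this one was chosen with earlier results of these data known, so its counts are a description. Tsc22d3, the glucocorticoid-induced leucine zipper, rose by 1.03 ± 0.18 (adjusted p = 1.69e-05 from DESeq) and Sgk1, a kinase induced by corticosteroids, rose by 1.12 ± 0.22 (adjusted p = 0.000337) in the authors' deposited table. Both stayed called in every alternative run. Other members of the list stood on either side of 0 in the authors' deposited table without a call, among them Fkbp5, a co-chaperone of the glucocorticoid receptor (0.58 ± 0.40), the clock gene Per1 (-0.01 ± 0.28), and the transcription factor genes Klf9 (-0.67 ± 0.36) and Zbtb16 (-0.98 ± 0.44), which had the lowest value of the list. Outside HCD-weaned females 0 of these genes were called, with medians of 0.12 in HCD-weaned males, 0.16 in RD-weaned females and 0.19 in RD-weaned males, and with 2, 0 and 0 genes in these groups at an unadjusted p under 0.05. Oxidative stress genes had medians of 0.21 in HCD-weaned females, 0.06 in HCD-weaned males, 0.01 in RD-weaned females and 0.06 in RD-weaned males, with 0 called in each and 3 genes in HCD-weaned females, but 0 in the other comparisons, at an unadjusted p under 0.05. Txn1, the thioredoxin gene, had the largest statistic of these in HCD-weaned females (0.67 ± 0.25) and HCD-weaned males (0.43 ± 0.29) in the authors' deposited tables. Gclc had the lowest value of the list in HCD-weaned females (-0.94 ± 0.36), also without a call. Genes of the cytokine and STAT3 response had medians between -0.05 and 0.03, with 0 called in each and 0 to 2 genes at an unadjusted p under 0.05, and Cebpb, a transcription factor gene, had the largest value in HCD-weaned males (1.06 ± 0.28, adjusted p = 0.0947 from DESeq in the authors' deposited table). Serpina3n, an acute phase gene of reactive astrocytes, had the largest statistic of that list in RD-weaned females (-0.91 ± 0.28) and RD-weaned males (-0.82 ± 0.37), with no call. The part of these stimuli in the metallothionein values was not tested.

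**Figure D5:**
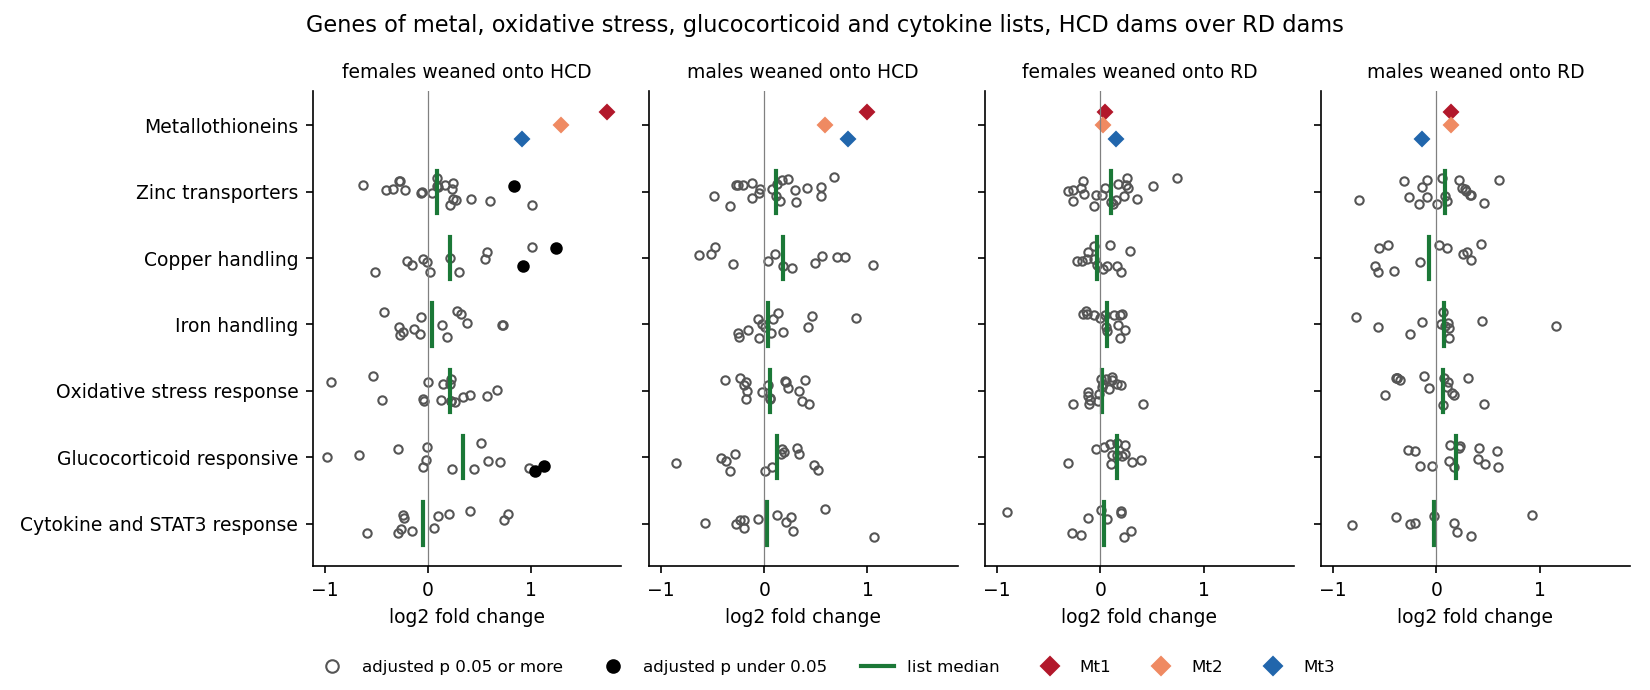
Log2 fold change of HCD dams over RD dams for the metallothioneins (diamonds) and for the genes of 6 lists (circles, filled where the adjusted p is under 0.05; green bar, list median), one panel per comparison, from the authors' deposited tables. Filled circles appear only in HCD-weaned females, for 1 zinc transporter, 2 copper genes and 2 glucocorticoid-responsive genes.

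The lists of markers of astrocytes, ependymal and vascular cells, which are known to make metallothioneins, had medians between -0.33 and 0.27. Of 14 astrocyte markers, 8 were positive in HCD-weaned females (median 0.10), 9 in HCD-weaned males (0.14), 1 in RD-weaned females (-0.19) and 1 in RD-weaned males (-0.21). Their summed level lay between 8738 and 9639 normalized CPM, so astrocyte RNA was present in all 4 comparisons. Aqp4, the astrocyte water channel, fell by 1.25 ± 0.33 on the log2 scale in HCD-weaned females (adjusted p = 0.0229 from DESeq in the authors' deposited table), opposite in sign to Mt1 and Mt2, and its call was lost with the same 2 alternatives (adjusted p = 0.128 and 0.104). Agt, the astrocytic angiotensinogen gene, fell by 0.79 ± 0.21 in RD-weaned females (adjusted p = 0.0460 from DESeq in the authors' deposited table), a call lost when the adjustment covered every gene with a p-value (adjusted p = 0.0567). Tanycyte and ependymal markers had medians of -0.13 in HCD-weaned females, 0.27 in HCD-weaned males, 0.02 in RD-weaned females and -0.33 in RD-weaned males, with 0 called and 0 to 3 at an unadjusted p under 0.05. Endothelial and pericyte markers had medians between -0.11 and 0.08, and the pericyte gene Rgs5 fell by 1.57 ± 0.41 in the authors' deposited table of HCD-weaned females, where no other marker of its list was called, and that call too was lost with either alternative (adjusted p = 0.0783 from DESeq statistics with the trend removed and 0.103 with the robust spread). Microglial markers had medians between -0.10 and 0.35, with 0 called and 0 to 2 at an unadjusted p under 0.05. The part of cell makeup in the metallothionein values was not tested.

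Several marker lists had most or all genes of 1 sign in single comparisons. Striatum markers were negative in 10 of 10 genes in HCD-weaned males (median -0.65) and positive in 10 of 10 in RD-weaned females (median 0.40), with 0 called in either and 7 and 2 genes at an unadjusted p under 0.05. Thalamus markers were positive in 8 of 8 genes in RD-weaned males (median 0.45), and cortex and hippocampus markers in 8 of 9 in RD-weaned females (median 0.84). At an unadjusted p under 0.05 stood 2 and 6 of these genes. Transcription factors of hypothalamic neurons, summed at 23.8 to 31.9 normalized CPM, were negative in 8 of 9 genes in HCD-weaned males (median -0.78) and in 8 of 8 in RD-weaned females (median -0.32). Of these, 7 and 0 genes had an unadjusted p under 0.05. Striatum markers summed to 1143 to 2095 normalized CPM and thalamus markers to 714 to 1077. Cortex and hippocampus markers summed to 435 to 770, and choroid plexus markers to 5006 to 6630. The part of neighbouring regions in these samples was not tested. Meningeal fibroblast markers were negative in 10 of 10 genes in HCD-weaned males (median -0.56), with 5 at an unadjusted p under 0.05. In RD-weaned females microglial markers were positive in 10 of 10 genes (median 0.35) and choroid plexus markers in 8 of 10 (median 0.54), and in RD-weaned males tanycyte and ependymal markers were negative in 8 of 8. At an unadjusted p under 0.05 stood 2 microglial, 5 choroid plexus and 0 tanycyte and ependymal markers in these comparisons. Oligodendrocyte and neuron markers had medians between -0.12 and 0.23 in the 4 comparisons.

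Calls in these lists, from the authors' deposited tables, were few. In HCD-weaned females they were the thalamus marker Ramp3 (0.77), the oligodendrocyte marker Ermn (-0.81) and the neuron marker Tubb3 (0.83). In HCD-weaned males they were the hypothalamic factors Sim1 (-1.37) and Fezf1 (-1.55), at low means of 26.5 and 23.7 normalized counts, and the meningeal marker Ogn (-1.20). In RD-weaned females they were the choroid plexus markers Kl (1.01) and Kcnj13 (0.84) and the thalamus marker Calb2 (-1.32), and in RD-weaned males the neuron marker Snap25 (0.88). Of these, Ramp3, Ermn, Sim1, Fezf1, Ogn and Kcnj13 each lost the call in at least 1 alternative. The sex-linked genes Xist and Ddx3y matched the labelled sex in each table, and Xist was called in HCD-weaned females (-0.94 ± 0.21, adjusted p = 0.00331 from DESeq in the authors' deposited table). The part of these markers in the metallothionein values was not tested.

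The summed means lay between 15402600 and 26951300 normalized counts, lowest in RD-weaned males, and the median standard error of a fold change was largest there (0.40).

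The genes around the cluster had medians close to 0 in every comparison. Of the 10 annotated genes on each side, 13 of 20 were listed and 7 or 8 were tested. None was called in the authors' deposited tables (0 in each, with 1 in HCD-weaned females and 0 elsewhere at an unadjusted p under 0.05), and their medians were 0.05 in HCD-weaned females, 0.01 in HCD-weaned males, 0.00 in RD-weaned females and 0.07 in RD-weaned males. The highest neighbour in HCD-weaned females was Herpud1, a gene of the endoplasmic reticulum stress response, at 0.63 (adjusted p = 0.263 from DESeq), below each of the 3 members, and the lowest was Gnao1, a G protein subunit gene, at -0.38 in the authors' deposited table.

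Among 12604 genes with an adjusted p in all 4 tables, the closest to Mt1 by root mean square distance over the 4 log2 fold changes were Rps29 (0.232), Srp9 (0.245), H1fx (0.269), Ckb (0.270) and Cox5a (0.277). These encode a ribosomal protein, a signal recognition particle subunit, a linker histone, brain creatine kinase and a subunit of cytochrome c oxidase. Mt2 was at rank 10 from Mt1 (0.302) and Mt3 at rank 61 (0.448). The closest to Mt2 were Fam173a (0.0846), Haghl (0.106), Dapk3 (0.114), 1700037H04Rik (0.127) and Cox5a (0.128), with Mt3 at rank 120 and Mt1 at rank 210. The likeness spans 4 comparisons, 2 of which chose Mt1 and Mt2. Over the 4 Wald statistics in place of fold changes, Ckb was the closest gene to both, Mt2 was at rank 2 from Mt1, Mt1 was at rank 3 from Mt2, and Tsc22d3 was at rank 2 from Mt2.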

How the data were processed

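Poly(A) RNA of hypothalamus was sequenced with a stranded mRNA kit, per the labels' protocols. DESeq (version not stated) and mm10 are named by the submitters' processing notes, while for aligner, counter and annotation the entry is "not given in the sources used here". Results rest on 4 of the 12 files, the authors' own pairwise tables. The mean these hold is a normalized count, a signal never below 0, per the file headers. Per the file headers, fold changes and standard errors are log2 values. Their ratio equals the deposited Wald statistic, a score. The p-value and adjusted p of each comparison are the ones the authors deposited, and some genes lack the adjusted one. Those of the sex difference and of the alternatives were computed here from the deposited statistics.

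The other 8 files hold 48 columns of single libraries whose names match no label, and these columns were not used. Depth per sample, errors of single samples and count tests are therefore not given. Since the labels do not say whether samples came from separate litters, a p-value here reflects sample-to-sample spread alone, which may be partly technical. The labels name RD dams as the control of both HCD-weaned tables, and for the RD-weaned tables give only the order of the 2 groups. If that order was misread, all signs of that table turn. Median absolute fold changes of genes with a mean normalized count under 10 were between 0.05 and 0.11, against 0.15 to 0.29 for genes of 100 or more, so the deposited fold changes appear shrunken and understate the change of low genes.

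The members and the 21 gene lists (229 symbols) were chosen with earlier results of these data known. Named in the text are the members, every marker or pathway gene called at an adjusted p under 0.05, in several pathway lists without a call the gene of largest absolute Wald statistic, and the 5 genes nearest to Mt1 and to Mt2. In addition, Slc30a1, Slc39a12, Gclc, Fkbp5, Per1, Klf9, Zbtb16, Herpud1 and Gnao1 were picked after their values were seen. Motif matches count both strands. CPM divides a gene's deposited mean by the sum of its table. Differences between tables are of log2 fold changes, with errors added in quadrature, and were tested in RD-weaned offspring with a 2-sided Wald test and Benjamini-Hochberg adjustment. Transcript length and GC content came from GENCODE M21 and were known for 96.4% to 96.5% of genes tested. The difference between tables and the removal of the trend were run on simulated data. The simulated fold changes were drawn at the tables' own standard errors, and the simulated trend had the form that was removed. That run therefore checks the calculation alone, and cannot show whether the deposited estimates and errors suit these tests. Recovery of the smaller simulated difference was not required to pass. Python 3.11.15, numpy 2.4.6, scipy 1.17.1, pandas 2.3.3 and matplotlib 3.10.9 were used.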

Additional observations from a re-analysis of the deposited data

How the results depend on the processing

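No paired analysis was possible because the library columns carry no replicate number that a label gives. For the same reason other size factors, another count tool, a filter on counts and leaving out replicates were not run. In RD-weaned offspring, 54 alternative values of the members gave 0 adjusted p-values under 0.05 (the lowest was 0.992). Of these, 7 reversed. The 54 include the setting of 0.10, which repeats the main adjusted p-values and so adds no evidence. With the trend on length and GC removed, RD-weaned females had -0.042 for Mt1, -0.017 for Mt2 and -0.014 for Mt3, and RD-weaned males 0.080 for Mt3. Turning the sign of the table of RD-weaned males gave female minus male differences of 0.18 for Mt1 and 0.16 for Mt2, and turning that of RD-weaned females gave -0.013 for Mt3. Over all genes, calls in HCD-weaned females numbered 229, against 450 at an adjusted p under 0.10, 56 with the Wald statistic divided by its robust spread and 54 with the trend removed. In HCD-weaned males 25 became 16 when adjusted only over genes whose mean reached 100 and 3 with the robust spread. In RD-weaned females 52 became 90 at 0.10, and in RD-weaned males 11 became 23 at 0.10 and 74 with the robust spread. Of 18 calls of list genes (sex-linked genes left out), 23 of 106 alternative values fell short. The 106 include the setting of 0.10, which could not lose a call. Sim1 and Fezf1 in HCD-weaned males have no value in the setting of genes whose mean reached 100, as their means lie below it. The cause of these changes was not tested. The spread of the fold changes limits what the RD-weaned comparisons could show.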
